A study of Mus musculus with 4 samples.

Results

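Phase II conjugation genes were examined in hepatocytes and the other liver nuclei of mice with and without hepatocyte Nampt. Members were all genes of the count matrix whose symbol starts with Sult, Ugt1a, Ugt2, Ugt3a, Gsta, Gstm, Gstp, Gstt or Mgst, pseudogenes left out, which gave 62 of 54464 genes. They comprised 21 sulfotransferases (Sult), 8 Ugt1a, 10 Ugt2 and 2 Ugt3a glycosyltransferases, 4 Gsta, 7 Gstm, 3 Gstp and 4 Gstt glutathione S-transferases, and 3 microsomal glutathione S-transferases (Mgst). Single-nucleus RNA-Seq had been performed on livers of 3 WT and 3 HNKO mice of the C57BL6/BomTac strain. Both genotypes carry the conditional (floxed) Nampt gene, and HNKO mice carry Alb-Cre in addition, with Cre driven in hepatocytes by the promoter of albumin. Per the study's methods, the mice were female littermates fed a purified diet (PD), from a cohort in which some mice also drank nicotinamide riboside, and the labels do not give the drinking water of the sequenced mice. Nuclei of each mouse were marked with a hashtag antibody, mixed and sequenced as 2 RNA pools with 2 hashtag pools, and a mouse is known only through the hashtag call of each nucleus.

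Conjugation couples drugs, hormones, bilirubin or bile acids to a polar group, so that they can be exported into bile or blood. Sulfotransferases take sulfate from PAPS, UDP-glucuronosyltransferases take glucuronic acid from UDP-glucuronate, and glutathione S-transferases couple electrophiles to glutathione. The liver is rich in all of these enzymes, and many of their genes respond to the nuclear receptors CAR (Nr1i3) and PXR (Nr1i2), to the aryl hydrocarbon receptor (Ahr) or to NRF2 (Nfe2l2).

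The data held 5193 nuclei, with 562 to 847 hepatocyte nuclei per mouse and 3524497 to 6635290 hepatocyte UMIs (counted RNA molecules) per mouse. UMIs were summed per mouse, and CPM denotes counts per 1000000 of such a sum after TMM scaling, and UPM denotes UMIs per 1000000 without it. TMM factors of the hepatocyte sums were 0.925, 0.968 and 0.941 in WT mice 1, 2 and 3. They were 0.917, 1.01 and 1.28 in HNKO mice 1, 2 and 3, and a larger factor lowers CPM. Nampt was at 92.2, 109 and 104 CPM in WT mice 1, 2 and 3 and 92.3, 148 and 71.5 CPM in HNKO mice 1, 2 and 3, with a log2 fold change of 0.03 ± 0.27 (SE). This gene-level count includes RNA from outside the deleted part and so checks nothing about the genotype labels. Clusters that the authors named after HNKO held 93.2% and 99.4% of the hepatocyte nuclei of HNKO mice 1 and 3, but 1.22% of those of the mouse labelled HNKO 2 and 0.356% to 0.561% of those of the WT mice. The paper itself describes 2 of its 3 HNKO mice as clearly apart from the rest. It relates part of the separation of HNKO hepatocytes to the necrosis scores of the livers, which were not used here. The mouse labelled HNKO 2 had 10 cholangiocyte nuclei, against 0 to 1 in the WT mice and 40 and 58 in HNKO mice 1 and 3. It had 26 CD45+ nuclei, against 7 to 16 in the WT mice and 68 and 45 in HNKO mice 1 and 3. Results on genotype are therefore given with and without the mouse labelled HNKO 2. As the clusters were built on the same nuclei and genes, this mouse was picked by its expression. Fits without it may therefore overstate genotype differences, and their p values are given as a description. HNKO mouse 3 also stood apart, as 49.0% of its hashtag counts came from its own hashtag, against 66.1% to 80.3% in the other mice, and as its 8 hepatocyte markers summed to 10109 UPM in hepatocytes, against 22200 to 28695. Each nucleus barcode carried 1 hashtag call, so that no barcode could be shared between mice, and this says nothing about mixing. Hepatocyte markers summed to 22130 UPM in hepatocyte nuclei and to 2086 to 8294 in the other 5 classes.

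Members lie at 20 loci in GRCm38, and their neighbourhood limits how UMIs could be assigned. The 8 Ugt1a genes share chr1:88055388-88220002 (plus strand). Each has its own first exon and they share the later exons, so that 50.3% to 60.6% of the exon bases of each gene belong to another Ugt1a gene too. Between 74.7% and 89.8% of their nonzero values per nucleus were not whole (tolerance 0.001), as UMIs had been split between genes, and values of single Ugt1a genes are uncertain. The same share was 36.9% for Sult2a2, 35.2% for Sult2a1 and 26.7% for Sult2a5, which are near copies in a cluster of 8 Sult2a genes at chr7:13623967-14494230. It was 77.4% for Gstp1 and 90.5% for Gstp2. In contrast it was 2.03% for Sult3a1, 0.436% for Sult2a8, 0.174% for Gsta3 and 0 for Sult1d1, Sult1e1, Ugt2b1, Mgst1 and Gstm1.

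Promoter sequence is shown first for the members that share a motif. RefSeq promoters on GRCm38.p6, 250 bases before to 50 bases after the annotated start, were matched for 54 of the 62 members (64 sequences). GTTAAT followed by any base and ATT, the first part of the site of the hepatocyte factor HNF1, was found on either strand in promoters of 8 of these 54 genes and in 0.399% of all 32851 promoter sequences. Each match is given in capitals with 20 bases on either side, 5′ to 3′ on the strand of the gene.
Sult1d1 (chr5:87569056-87569105, minus strand): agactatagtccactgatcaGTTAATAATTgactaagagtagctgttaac
Sult2a3 (chr7:14123070-14123119, minus strand): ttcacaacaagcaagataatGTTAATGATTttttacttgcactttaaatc
Sult2a4 (chr7:13989666-13989715, minus strand): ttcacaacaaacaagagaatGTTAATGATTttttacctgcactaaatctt
Sult2a5 (chr7:13623919-13623968, plus strand): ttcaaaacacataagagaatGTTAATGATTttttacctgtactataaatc
Sult2a6 (chr7:14254912-14254961, minus strand): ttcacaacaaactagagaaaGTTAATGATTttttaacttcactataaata
Ugt1a1 (chr1:88211894-88211943, plus strand): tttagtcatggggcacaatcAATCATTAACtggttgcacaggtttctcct
Ugt1a10 (chr1:88055316-88055365, plus strand): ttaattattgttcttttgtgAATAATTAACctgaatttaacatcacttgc
Ugt1a9 (chr1:88070664-88070713, plus strand): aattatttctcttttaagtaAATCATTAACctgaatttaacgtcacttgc
The Sult2a genes are neighbours with similar windows, as are Ugt1a9 and Ugt1a10, so these are not independent matches. For the Ugt1a genes the letters are on the opposite strand. The other strings searched on both strands were AGGTCA (a nuclear receptor half-site, 11 of 54 genes against 16.3% of all promoters), GCGTG (the core bound by the aryl hydrocarbon receptor, 11 against 32.4%), TGACNNNGC (the antioxidant response core, 4 against 12.4%), CTTTGAT (TCF/LEF, 1 against 3.73%) and CAAAGTCCA (HNF4, 1 against 0.475%). Members were counted as genes with a match in any of their promoters, and the background as single promoter sequences, so the units differ. Matches of letters are a description and not evidence of binding.

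Promoters of Sult3a1 and Sult5a1 are shown because these members differed most between the zones of the lobule, in opposite directions, as given below. Neither holds any of the 6 strings, and they are printed without capitals.
Sult3a1 (chr10:33857472-33857771, plus strand): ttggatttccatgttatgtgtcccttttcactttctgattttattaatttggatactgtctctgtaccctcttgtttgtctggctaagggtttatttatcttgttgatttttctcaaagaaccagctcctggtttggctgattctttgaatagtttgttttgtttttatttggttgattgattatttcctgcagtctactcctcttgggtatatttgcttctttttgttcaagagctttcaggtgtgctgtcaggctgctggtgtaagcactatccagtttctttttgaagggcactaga
Sult5a1 (chr8:123158231-123158530, minus strand): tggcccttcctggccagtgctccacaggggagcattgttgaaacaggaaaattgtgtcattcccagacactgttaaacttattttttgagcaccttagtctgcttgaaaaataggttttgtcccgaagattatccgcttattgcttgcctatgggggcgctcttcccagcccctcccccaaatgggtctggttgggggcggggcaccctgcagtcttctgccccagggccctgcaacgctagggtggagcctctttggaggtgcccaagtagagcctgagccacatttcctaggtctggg
No match says only that these letters are not in this window.

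No sulfotransferase passed the test between HNKO and WT hepatocytes, and 13 of the 14 tested had a log2 fold change below 0. Sult3a1 (chr10:33857721-33879532, plus strand), a sulfotransferase with female-predominant expression in mouse liver, was at 63.2, 32.1 and 30.8 CPM in WT mice 1, 2 and 3 and 5.79, 23.8 and 1.86 CPM in HNKO mice 1, 2 and 3. All 3 HNKO mice were below all 3 WT mice, with the mouse labelled HNKO 2 closest to them. The log2 fold change of HNKO over WT was -2.01 ± 0.76 (SE; edgeR, unadjusted p = 0.0298, adjusted p = 0.82), and -3.46 ± 0.56 without the mouse labelled HNKO 2 (adjusted p = 0.081).

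Sult1e1 (chr5:87575969-87591594, minus strand), the estrogen sulfotransferase, was at 7.40, 5.79 and 17.1 CPM in WT mice 1, 2 and 3 and 2.81, 5.16 and 0.717 CPM in HNKO mice 1, 2 and 3. The groups did not overlap, but WT mouse 2 and the mouse labelled HNKO 2 were close, and WT mouse 3 was well above the rest. Its log2 fold change was -1.83 ± 0.65 (edgeR, adjusted p = 0.82), -2.54 ± 0.69 without the mouse labelled HNKO 2 and -1.20 without WT mouse 3. Sult1d1 (chr5:87554645-87569027, minus strand), which sulfates catecholamines, was at 181, 260.1 and 353 CPM in WT mice 1, 2 and 3 and 147, 149.7 and 44.3 CPM in HNKO mice 1, 2 and 3. Here HNKO mouse 3 was by far the lowest, while HNKO mice 1 and 2 were a little below WT mouse 1 (log2 fold change -1.22 ± 0.46, edgeR, adjusted p = 0.82).

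Sult2a8 (chr7:14410686-14446769, minus strand), which sulfates bile acids in mouse liver, was at 542, 219 and 118 CPM in WT mice 1, 2 and 3 and 50.4, 165 and 121 CPM in HNKO mice 1, 2 and 3. WT mouse 1 was far above the other mice, WT mouse 3 was below HNKO mice 2 and 3, and the groups overlapped (log2 fold change -1.39 ± 0.60, edgeR, adjusted p = 0.82), which was -0.59 without WT mouse 1. The hydroxysteroid sulfotransferases Sult2a1 and Sult2a2 ranged widely among WT mice. Sult2a1 was at 5.86, 476 and 112 CPM in WT mice 1, 2 and 3 and 20.2, 131 and 49.9 CPM in HNKO mice 1, 2 and 3. Sult2a2 was at 14.5, 341 and 169.9 CPM in WT mice 1, 2 and 3 and 52.7, 170.4 and 124 CPM in HNKO mice 1, 2 and 3. For both genes WT mouse 1 was the lowest and WT mouse 2 the highest of the 6 mice. Their log2 fold changes were -1.56 ± 1.19 and -0.60 ± 0.87, and turned to 0.18 and 0.32 without WT mouse 2.

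Sult1a1 (chr7:126672865-126676432, minus strand), the phenol sulfotransferase, was at 90.4, 104 and 134 CPM in WT mice 1, 2 and 3 and 106, 113 and 51.5 CPM in HNKO mice 1, 2 and 3. Only HNKO mouse 3 was below the WT range (log2 fold change -0.28 ± 0.31). Of the 14 sulfotransferases that passed the filter on low counts, 13 had a log2 fold change below 0, with a median of -0.96, against a median of 0.02 and 47.6% below 0 over all 11809 genes tested. Without WT mouse 2 this was 9 of 14 with a median of -0.33, and without the mouse labelled HNKO 2 it was 12 of 13 with a median of -1.61. Sult2a genes share split UMIs and are not independent. As a share of hepatocyte UMIs, the whole family took 0.115% ± 0.0394 (SD, n = 3) in WT and 0.0629% ± 0.0273 (SD, n = 3) in HNKO mice, and the mice overlapped.

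**Figure D1:**
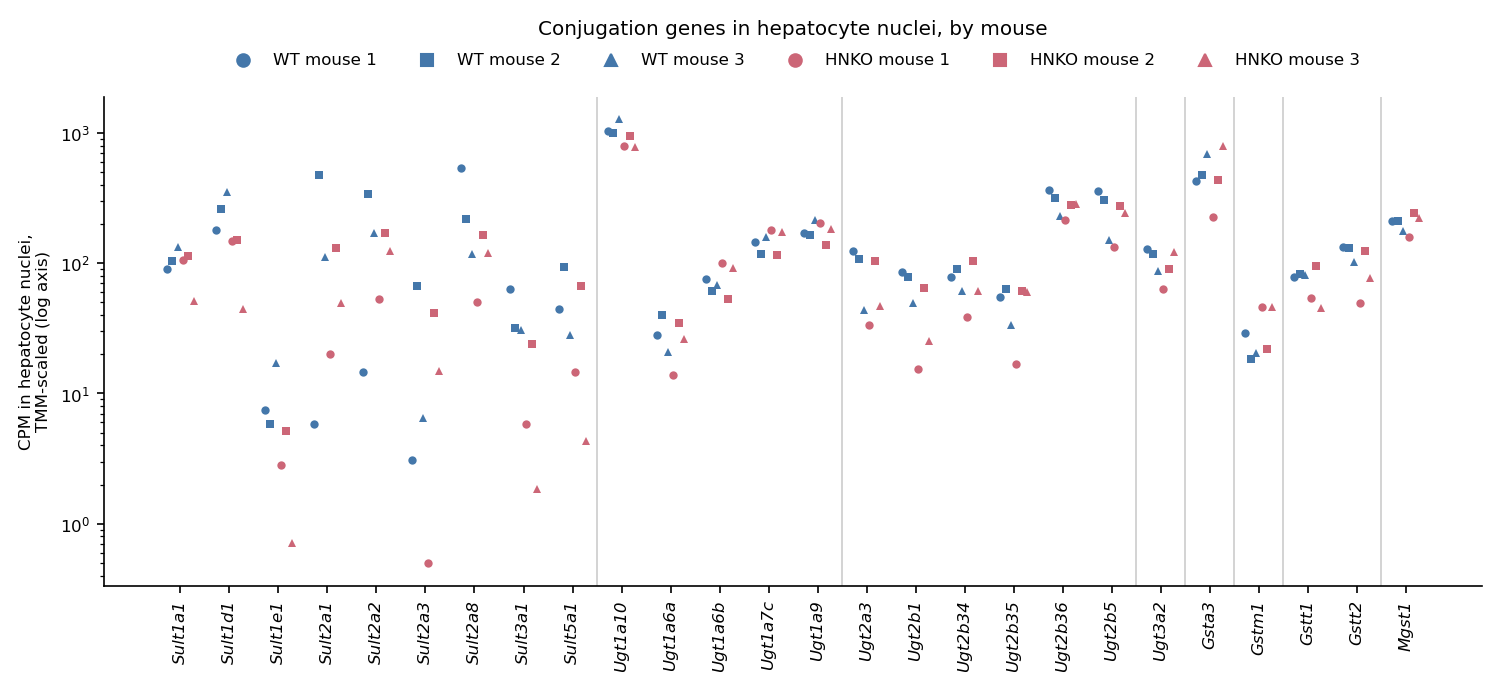
Each point is the level of 1 gene in the hepatocyte nuclei of 1 mouse, in CPM after TMM scaling on a log axis, with WT mice in blue and HNKO mice in red. Genes with a mean of at least 20 CPM and Sult1e1 and Gstm1 are shown by family. Sult2a1 ranged from 5.86 to 476 CPM among WT mice alone, whereas Ugt1a10 ranged from 786 to 1275 CPM over all 6 mice.

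Glucuronosyltransferases of the Ugt1a locus overlapped between genotypes in sum. The family, which includes the bilirubin enzyme Ugt1a1, took 0.145% ± 0.0168 (SD, n = 3) in WT and 0.138% ± 0.0226 (SD, n = 3) in HNKO mice of hepatocyte UMIs. Ugt1a10, the member assigned most UMIs, was at 1029, 997 and 1275 CPM in WT mice 1, 2 and 3 and 792, 955 and 786 CPM in HNKO mice 1, 2 and 3. After TMM scaling each HNKO mouse was below each WT mouse, by a small margin for the mouse labelled HNKO 2 (log2 fold change -0.38 ± 0.23, edgeR, adjusted p = 0.82). Before scaling the genotypes overlapped, as Ugt1a10 had 5487 of 5495511 hepatocyte UMIs in HNKO mouse 3. In WT mouse 1 it had 3336 of 3524008, a lower share. Since UMIs were split within the locus, the difference in CPM may also not be read as one of Ugt1a10 itself.

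Ugt1a9 was at 171, 164 and 217 CPM in WT mice 1, 2 and 3 and 203, 138 and 183 CPM in HNKO mice 1, 2 and 3. Ugt1a7c was at 145, 117 and 159 CPM in WT mice 1, 2 and 3 and 181, 116 and 174 CPM in HNKO mice 1, 2 and 3. Ugt1a6b, of the branch that conjugates phenols, was at 75.6, 61.0 and 68.5 CPM in WT mice 1, 2 and 3 and 99.5, 52.7 and 92.6 CPM in HNKO mice 1, 2 and 3. All 3 genes overlapped between genotypes, and in each the mouse labelled HNKO 2 had the lowest value of the 6 mice. Log2 fold changes were -0.08 ± 0.21, 0.16 ± 0.22 and 0.26 ± 0.25.

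Among Ugt2 genes, which conjugate steroids and drugs and lie together at chr5:86889767-87591594 with Sult1b1, Sult1d1 and Sult1e1, only Ugt2b1 among the 8 tested had a log2 fold change beyond 1 in either direction. Ugt2b1 was at 85.4, 78.4 and 49.7 CPM in WT mice 1, 2 and 3 and 15.5, 64.2 and 25.1 CPM in HNKO mice 1, 2 and 3. HNKO mice 1 and 3 were below every WT mouse, and the mouse labelled HNKO 2 lay within the WT range. The log2 fold change was -1.03 ± 0.49 (edgeR, adjusted p = 0.82), and -1.80 ± 0.33 without the mouse labelled HNKO 2 (adjusted p = 0.118).

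Ugt2b36, the Ugt2 gene with the highest mean CPM, was at 367, 318 and 231 CPM in WT mice 1, 2 and 3 and 215, 280.1 and 283 CPM in HNKO mice 1, 2 and 3. Ugt2b5 was at 358, 306 and 149.7 CPM in WT mice 1, 2 and 3 and 133, 273 and 245 CPM in HNKO mice 1, 2 and 3. HNKO mouse 1 was the lowest of the 6 mice for both genes, and WT mouse 1 the highest (log2 fold changes -0.24 ± 0.23 and -0.32 ± 0.38). Ugt2a3 was at 123, 107 and 43.7 CPM in WT mice 1, 2 and 3 and 33.4, 105 and 46.7 CPM in HNKO mice 1, 2 and 3. Ugt2b34 was at 78.3, 90.0 and 61.5 CPM in WT mice 1, 2 and 3 and 38.7, 103 and 60.8 CPM in HNKO mice 1, 2 and 3. For these genes the mouse labelled HNKO 2 was near or above the upper WT values and HNKO mouse 1 was lowest (log2 fold changes -0.57 ± 0.49 and -0.18 ± 0.34, and -1.18 ± 0.44 and -0.62 ± 0.28 without the mouse labelled HNKO 2). Ugt3a2 (chromosome 15), a related enzyme that uses sugars other than glucuronic acid, was at 129, 118 and 87.5 CPM in WT mice 1, 2 and 3 and 63.5, 89.5 and 122 CPM in HNKO mice 1, 2 and 3 and overlapped between genotypes (log2 fold change -0.29 ± 0.27).

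No glutathione S-transferase passed the test, and log2 fold changes lay on both sides of 0. Gsta3 (chr1:21240589-21265661, plus strand), an alpha-class enzyme known for aflatoxin detoxification in mice, was at 427, 472 and 686 CPM in WT mice 1, 2 and 3 and 225, 435 and 791 CPM in HNKO mice 1, 2 and 3. HNKO mouse 1 had the lowest and HNKO mouse 3 the highest value of all mice. The log2 fold change was -0.13 ± 0.43 and turned positive when WT mouse 3 or HNKO mouse 1 was left out.

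The theta-class genes Gstt1 and Gstt2 are neighbours at chr10:75774115-75837424. Gstt1 was at 78.0, 82.3 and 80.8 CPM in WT mice 1, 2 and 3 and 54.2, 95.5 and 45.6 CPM in HNKO mice 1, 2 and 3. Gstt2 was at 133, 132 and 101 CPM in WT mice 1, 2 and 3 and 49.6, 125 and 76.7 CPM in HNKO mice 1, 2 and 3. In both, HNKO mice 1 and 3 were below every WT mouse after TMM scaling and the mouse labelled HNKO 2 was not. Before scaling, Gstt2 had 535 of 5495511 UMIs in HNKO mouse 3 and 422 of 4447648 in WT mouse 3, a lower share. Log2 fold changes were -0.30 ± 0.28 and -0.54 ± 0.32, and -0.69 ± 0.19 and -0.95 ± 0.26 without the mouse labelled HNKO 2 (edgeR, adjusted p = 0.275 and 0.269).

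Gstm1 (chr3:108012255-108017973, minus strand), a mu-class enzyme, was at 29.3, 18.4 and 20.4 CPM in WT mice 1, 2 and 3 and 46.1, 21.8 and 45.7 CPM in HNKO mice 1, 2 and 3. HNKO mice 1 and 3 were above every WT mouse and the mouse labelled HNKO 2 was within the WT range. Its log2 fold change was 0.74 ± 0.33 (edgeR, adjusted p = 0.82), and 1.02 ± 0.24 without the mouse labelled HNKO 2 (adjusted p = 0.213). Mgst1 (chr6:138140316-138156755, plus strand), a membrane-bound enzyme, was at 213, 212 and 177 CPM in WT mice 1, 2 and 3 and 158, 241 and 223 CPM in HNKO mice 1, 2 and 3, and the groups overlapped (log2 fold change 0.05 ± 0.21). The Gstm family as a whole took 0.00273% ± 0.000574 (SD, n = 3) in WT and 0.00516% ± 0.00225 (SD, n = 3) in HNKO mice of hepatocyte UMIs, and Gsta genes took 0.0509% ± 0.0127 (SD, n = 3) in WT and 0.0564% ± 0.0423 (SD, n = 3) in HNKO mice.

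**Figure D2:**
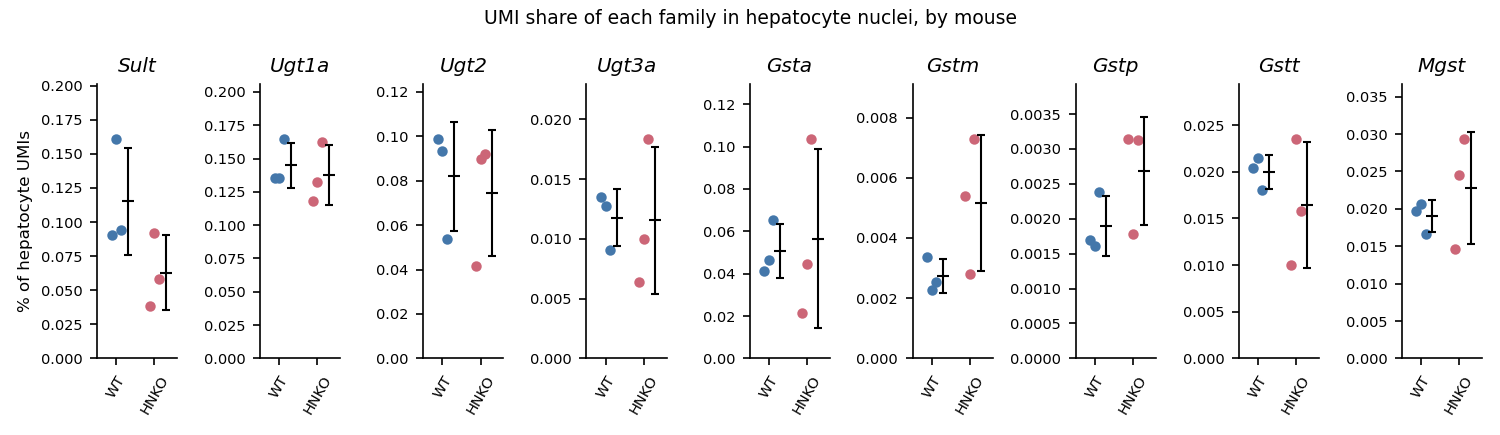
Each panel shows the share of hepatocyte UMIs (in percent) that 1 family took in each mouse, with the mean and SD of the 3 mice of a genotype beside the points. Axes start at 0 and differ between panels. The Sult share averaged 0.115% in WT and 0.0629% in HNKO mice, and genotypes overlapped in every panel.

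In sum, 0 of the 44 members tested in hepatocytes were called between genotypes (edgeR, adjusted p under 0.05), where 0% of all 11809 genes were. DESeq2 also called 0 members, and 0.178% of all genes. The other 18 members were below the filter on low counts, with 0 to 78 UMIs in all hepatocytes, and Ugt2a1 and Ugt2a2 were at 0 UMIs after rounding. An unadjusted p under 0.05 was found for 4 members, Sult1e1, Sult1d1, Sult3a1 and Sult2a8, all lower in HNKO mice. Among all genes 5.91% had such a p and 2.05% were also lower and 3.86% higher. After TMM scaling, genotypes did not overlap for 5 members, all lower in HNKO mice, against 5.17% of all genes. Beside Sult1d1, Sult1e1, Sult3a1 and Ugt1a10 this was Ugt1a5, named after its values were seen. Before scaling, Ugt1a10 and Ugt1a5 overlapped between genotypes. Ugt1a5 had 52 of 5495511 UMIs in HNKO mouse 3 and 31 of 3524008 in WT mouse 1, a lower share. No member was higher in every HNKO mouse, as 6.43% of all genes were.

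Without the mouse labelled HNKO 2, still 0 of 44 members were called, against 0.266% of 12046 genes (0.249% higher in HNKO and 0.0166% higher in WT mice), and 14 had an unadjusted p under 0.05, against 10.8%. Of these, 11 were lower in HNKO mice, against 4.03% of all genes, and 3 were higher, against 6.72%. Since the mouse labelled HNKO 2 was picked by its expression, these counts may overstate the genotype difference. The second smallest p after Sult3a1 was that of Gstm3, named after its values were seen, with 1, 1 and 1 UMIs in the WT mice and 15, 2 and 21 UMIs in HNKO mice 1, 2 and 3 (adjusted p = 0.0848). All members together took 0.449% ± 0.0401 (SD, n = 3) in WT and 0.390% ± 0.118 (SD, n = 3) in HNKO mice of hepatocyte UMIs, from 0.259% in HNKO mouse 1 to 0.495% in WT mouse 2.

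Markers of other cell types in hepatocyte nuclei differed between the same mice. Stellate markers (5 genes) summed to 195 and 123 UPM in HNKO mice 1 and 3, to 32.6 in the mouse labelled HNKO 2 and to 40.3 to 89.5 in the WT mice, with Lrat at 0 in at least 1 mouse. Cholangiocyte markers (5 genes) summed to 26.4 and 40.2 in HNKO mice 1 and 3, to 8.35 in the mouse labelled HNKO 2 and to 7.64 to 14.7 in WT mice, with Krt19, Krt7, Epcam and Sox9 at 0 in at least 1 mouse. Endothelial markers ranged from 27.1 to 40.3 over all mice, Kupffer cell markers from 4.88 to 9.98, and CD45+ markers from 12.1 to 18.0. Their part in the member values was not tested.

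Members were called between the zones of the lobule. Blood flows in the lobule from the portal triad to the central vein, and drug metabolism is known as a pericentral function. Hepatocyte nuclei of each mouse were ordered by 7 pericentral minus 8 periportal marker genes, none a member, and the third with the highest score (the pericentral nuclei) was compared with the third with the lowest score (the periportal nuclei), with mouse as a block. Of 39 members tested, 16 were called (edgeR, adjusted p under 0.05), against 17.7% of all genes. Higher in the pericentral nuclei were 14 members, against 10.1% of all genes, and higher in the periportal nuclei were 2, against 7.63%. The median log2 fold change was 0.35 over members and -0.01 over all genes. Among the markers that set the order, Pck1 averaged 2742 CPM in pericentral and 2746 CPM in periportal nuclei and was higher pericentrally in 3 of 6 mice. The 8 periportal markers summed to 2195 UPM in hepatocytes of HNKO mouse 3, against 6024.8 to 7545.5 in the other mice. When mouse was not a block, 0 of 34 members tested were called, and calls over all genes fell as well, to 267 of 8637 from 1800 of 10167.

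Sult3a1 had the steepest gradient. In pericentral nuclei it was at 129, 95.4 and 86.5 CPM in WT mice 1, 2 and 3 and at 15.9, 67.4 and 1.99 CPM in HNKO mice 1, 2 and 3. In periportal nuclei it was at 4.93, 2.13 and 0.598 CPM in WT mice 1, 2 and 3 and at 0.449, 0.843 and 0.775 CPM in HNKO mice 1, 2 and 3. HNKO mouse 3 had 4 pericentral against 2 periportal UMIs, too few to read a gradient in that mouse, and the other mice had 31 to 142 against 1 to 6. The log2 fold change was 5.32 ± 0.27 (SE; edgeR, adjusted p = 3.66e-11).

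Sult5a1 (chr8:123140192-123158315, minus strand), a sulfotransferase whose substrates are poorly known, ran the other way. It was at 74.8, 169 and 47.8 CPM in WT mice 1, 2 and 3 and at 28.8, 99.5 and 8.14 CPM in HNKO mice 1, 2 and 3 in periportal nuclei. In pericentral nuclei it was at 15.4, 25.2 and 3.83 CPM in WT mice 1, 2 and 3 and at 5.12, 27.1 and 0.995 CPM in HNKO mice 1, 2 and 3. Every mouse had more in its periportal nuclei, and HNKO mouse 3 had the least in both (log2 fold change -2.44 ± 0.17, edgeR, adjusted p = 2.84e-09).

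Sult2a8 was at 1003, 294 and 188 CPM in WT mice 1, 2 and 3 and at 83.0, 264 and 231 CPM in HNKO mice 1, 2 and 3 in pericentral nuclei. Periportally it was at 257, 128 and 69.9 CPM in WT mice 1, 2 and 3 and at 28.3, 94.0 and 50.4 CPM in HNKO mice 1, 2 and 3. Each mouse was higher pericentrally, although the level of WT mouse 1 exceeded that of HNKO mouse 1 in either zone (log2 fold change 1.66 ± 0.11, edgeR, adjusted p = 1.13e-09). Sult2a5 (1.17 ± 0.19), Sult2a2 (0.67 ± 0.10) and Sult1d1 (0.33 ± 0.09) were also called, and were higher pericentrally in 6 of 6 mice each. Sult2a1, which shares split UMIs with Sult2a2, did not pass the test, with 0.12 ± 0.12 (adjusted p = 0.577) and a higher pericentral value in 3 of 6 mice.

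Gsta3 averaged 669.6 ± 259.5 CPM (SD, n = 6) in pericentral and 395 ± 181 CPM in periportal nuclei, and was higher pericentrally in 6 of 6 mice (log2 fold change 0.79 ± 0.07, edgeR, adjusted p = 3.45e-08). Mice that differed widely in Gsta3 level, such as HNKO mice 1 and 3, thus shared its gradient. Gstt2 (0.41 ± 0.08, 6 of 6 mice), Mgst1 (0.45 ± 0.09, 5 of 6 mice) and Gstm1 (0.46 ± 0.15, 5 of 6 mice) were called in the same direction, but Gstm1 was not called without any 1 of WT mice 1, 2 and 3 or the mouse labelled HNKO 2, nor with DESeq2 (adjusted p = 0.125) or with all nuclei split at the median score (0.111).

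Of the Ugt genes, Ugt2b1 averaged 73.1 ± 44.6 CPM (SD, n = 6) in pericentral and 40.0 ± 18.7 CPM in periportal nuclei and was higher pericentrally in 6 of 6 mice (log2 fold change 0.78 ± 0.12). Ugt2b36 (0.61 ± 0.10), Ugt3a2 (0.40 ± 0.11), Ugt1a6b (0.47 ± 0.13) and Ugt1a6a (0.43 ± 0.15) were called as pericentral and were higher there in 5 of 6 mice each. The call of Ugt1a6a was lost without WT mouse 1, 2 or 3 or HNKO mouse 1, and also with DESeq2 (adjusted p = 0.163), with no filter on low counts (0.0606), with all nuclei split at the median score (0.0586) and with a score without cytochrome P450 markers (0.0691). Calls were also lost without 1 mouse for other genes, that of Ugt1a6b without WT mouse 3, that of Ugt3a2 without WT mouse 3 or the mouse labelled HNKO 2, and that of Sult1d1 without WT mouse 1. Ugt1a9, of the same locus, was higher periportally in 6 of 6 mice (-0.42 ± 0.08, adjusted p = 0.000913).

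**Figure D3:**
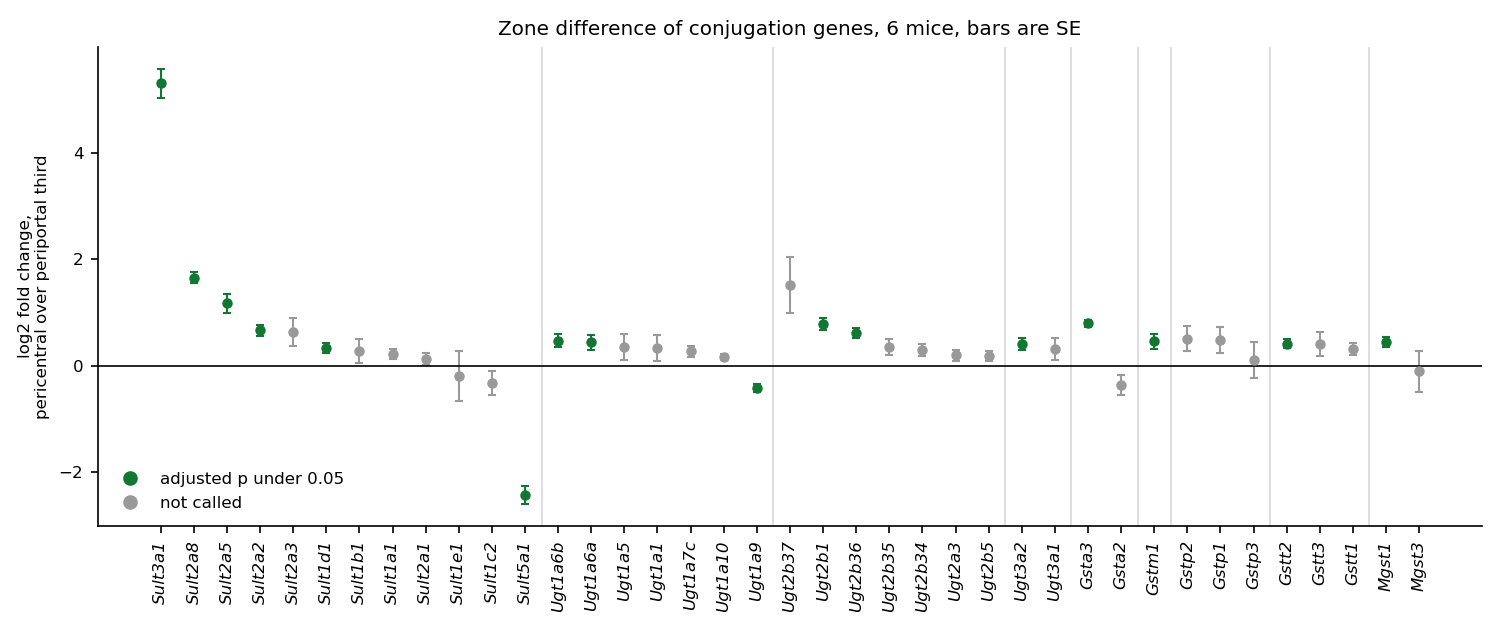
Points give the log2 fold change of pericentral over periportal nuclei for each of the 39 members tested, with SE over 6 mice as bars, by family. Green points had an adjusted p under 0.05. Sult3a1 lies at 5.32 and Sult5a1 at -2.44.

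Whether zonation differed between genotypes was tested as an interaction, and 0 of 39 members were called (edgeR), against 0.00984% of all genes. An unadjusted p under 0.05 was found for 4 members, against 5.43% of all genes. These were Ugt1a6b (-0.70 ± 0.20), Mgst1 (-0.50 ± 0.15), Ugt1a6a (-0.61 ± 0.27) and Ugt2b36 (-0.39 ± 0.18), each with less pericentral excess in HNKO mice and an adjusted p of 0.691 or above. Mgst1 was at 262, 282 and 217 CPM in WT mice 1, 2 and 3 and at 162, 292 and 239.8 CPM in HNKO mice 1, 2 and 3 in pericentral nuclei. Its periportal level was 162, 166 and 135 CPM in WT mice 1, 2 and 3 and 165, 216 and 205 CPM in HNKO mice 1, 2 and 3. WT mice and the mouse labelled HNKO 2 were higher pericentrally, HNKO mouse 3 slightly so, and HNKO mouse 1 not.

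Levels in the authors' clusters are given as a description, since the clusters were built on the same nuclei and genes. Of the 13 hepatocyte clusters, 9 drew over 90% of their nuclei from 1 mouse, so that cluster and mouse cannot be told apart there. Sult3a1 was at 122 UPM in Hepatocytes 4 and 116 in Central 1, against 28.9 in Central HNKO 1. In Central HNKO 2, all of whose nuclei came from HNKO mouse 3, it had 0 of 432420 UMIs, which allows up to 6.94 UPM. Central HNKO 1 drew 98.9% of its nuclei from HNKO mouse 1, while Central 1 was mixed and drew 36.7% from the mouse labelled HNKO 2, its largest contributor.

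Gsta3 behaved otherwise, as it was at 1691 UPM in Central HNKO 2, its highest cluster, and at 183 in HNKO 1, its lowest, with 741 in Central 1. Sult2a8 was at 654 UPM in Central 1, 375 in Central HNKO 2 and 50.1 in Central HNKO 1. Sult5a1 peaked in Periportal 1 at 124 UPM and was at 1.73 in HNKO 3. Clusters with HNKO in their name thus held both ends of the Gsta3 range. Sult2a1 ranged most among members with at least 50 CPM, from 5.01 in Periportal 3 (94.8% from WT mouse 1) to 394 UPM in Hepatocytes 1 (53.0% from WT mouse 2). Ugt1a10 ranged least, from 619 to 1238. All members together took between 0.251% of UMIs in HNKO 1 and 0.614% in Central HNKO 2.

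**Figure D4:**
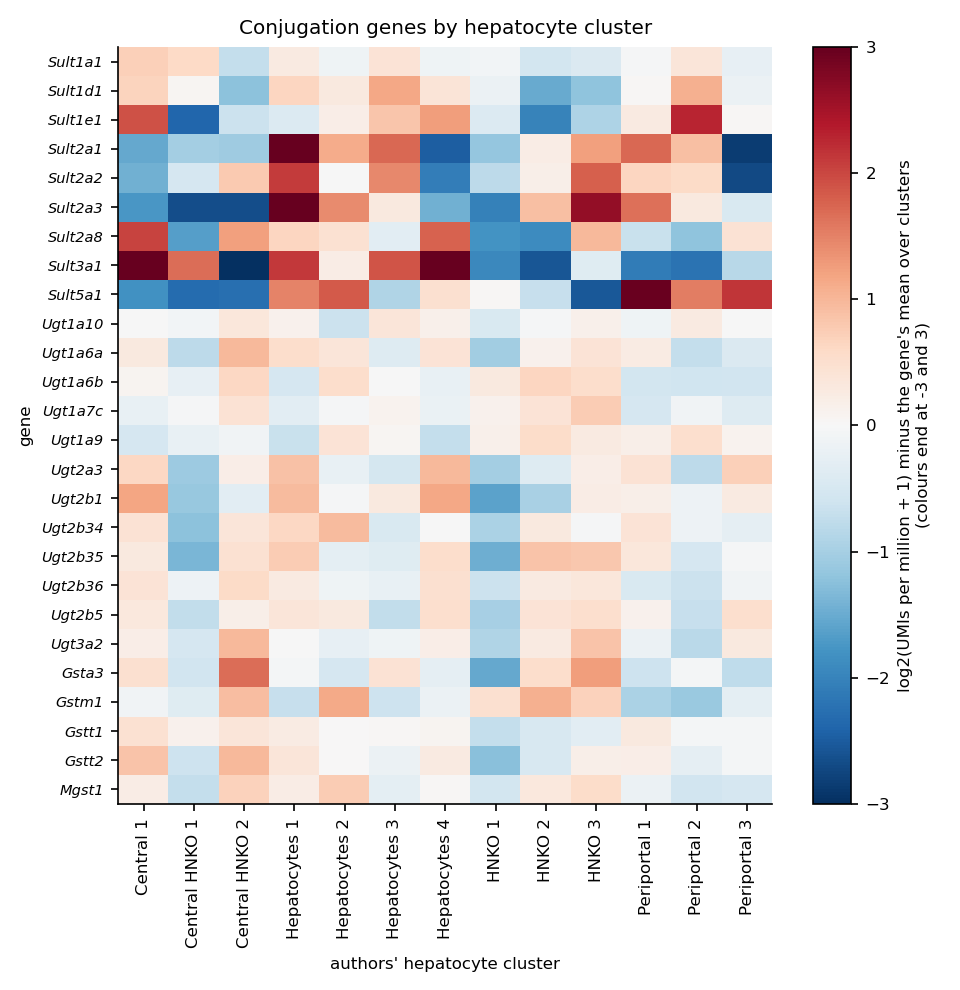
Colour shows log2(UPM + 1) of each gene in each of the 13 hepatocyte clusters minus the mean of the gene over clusters, from -3 (blue) to 3 (red). Sult3a1 is red in Central 1 and Hepatocytes 4 and Sult5a1 in Periportal 1, while Ugt1a10 is near white throughout.

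In other liver nuclei the members summed to less than in hepatocytes, in ranges that overlapped those of the hepatocyte markers found there. Within mice, 33 of 45 members tested were higher in hepatocytes than in endothelial nuclei (edgeR, adjusted p under 0.05) and 0 were lower, against 28.1% of all genes higher and 45.3% called. Against stellate nuclei 34 of 38 were higher and 0 lower, against 25.6% of all genes higher and 41.4% called. Gsta3 averaged 601 ± 243 CPM (SD, n = 6) in hepatocytes and 109 ± 57.0 CPM in endothelial nuclei (log2 fold change 2.36 ± 0.19). Sult2a8 averaged 240.4 ± 208 CPM (SD, n = 6) and 26.4 ± 17.7 CPM (2.98 ± 0.27). By comparison Alb, the albumin gene, had a log2 fold change of 2.28 ± 0.16 and Cps1, a urea cycle enzyme, of 2.52 ± 0.16, although endothelial cells are not known to make either.

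Relative to hepatocytes of the same mouse, the 62 members summed to 21.8% to 37.9% in endothelial nuclei, where the 8 hepatocyte markers summed to 15.8% to 38.9%. In stellate nuclei the members were at 8.28% to 30.9% and the markers at 4.66% to 32.3%. In CD45+ nuclei (5 mice) these ranges were 33.8% to 54.1% and 30.2% to 49.6%. Cholangiocytes and Kupffer cells had at least 10 nuclei in 3 mice, all HNKO, with members at 13.8% to 30.9% and 14.0% to 20.1%, and markers at 7.68% to 19.8% and 7.85% to 26.9%. Within mice, members were above markers in cholangiocytes of each mouse, and in stellate and CD45+ nuclei of each mouse but HNKO mouse 3. In endothelial nuclei this held for WT mice 2 and 3 and the mouse labelled HNKO 2, and in Kupffer cells for HNKO mice 1 and 2. Whether this excess is expression was not tested, and member UMIs in these nuclei are not read as expression.

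Of the 21 members with the most hepatocyte UMIs, those above the highest of the 8 markers were Gstt1 in stellate nuclei (32 UMIs, 65.4% of its hepatocyte level, against 38.5%), Mgst1 in Kupffer cells (29 UMIs, 47.0% against 40.7%) and Ugt1a6b in CD45+ nuclei (48.0 UMIs, 93.7% against 64.8%). Each was the only one of these 21 to exceed the markers in its class, and 0 did so in endothelial nuclei and cholangiocytes. Members with fewer hepatocyte UMIs were left out of this count. Among them Gstm1 (979 hepatocyte UMIs) exceeded the highest marker in every class. Gstp2 (289 hepatocyte UMIs) and Gstm2 (50 hepatocyte UMIs), named after their values were seen, did so too. Gstp2 ran from 70.2% in endothelial nuclei (6.39 UMIs) to 438% in Kupffer cells (12.6 UMIs). Gstm2 ran from 174% in stellate nuclei (2 UMIs) to 401% in Kupffer cells (2 UMIs). Gstm1 was at 81.0% in endothelial nuclei (25 UMIs, against 51.3%) and 75.4% in stellate nuclei (17 UMIs). Kupffer cells had 82.0% (8 UMIs), CD45+ nuclei 92.8% (20 UMIs) and cholangiocytes 153% (33 UMIs, against 85.9%). For Sult1b1, Sult1e1, Gsta2 and Gstp3, stellate nuclei had 0 UMIs in all mice, so that the level in hepatocytes was at least 2.01-fold, 1.31-fold, 2.49-fold and 1.39-fold higher, with a floor of 3 UMIs over the 6 mice. For Ugt2b37 endothelial nuclei had 0 UMIs, and the same floor allowed up to 3.17 UPM, against 3.06 UPM in hepatocytes. By this floor no difference can be stated, although Ugt2b37 was called as higher in hepatocytes (5.99 ± 2.52, edgeR, adjusted p = 0.0398).

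Gstm1 was the only member whose highest level lay outside hepatocytes with at least 20 UMIs. In cholangiocytes, it was at 49.8 UPM (33 UMIs), against 32.6 in hepatocytes. By mouse, cholangiocytes of HNKO mice 1, 2 and 3 had 30.7, 24.6 and 67.6 UPM (8, 1 and 24 UMIs), against 42.0, 21.9 and 58.0 in their hepatocytes. Cholangiocytes were thus higher in HNKO mice 2 and 3 and lower in HNKO mouse 1, and WT mice had at most 1 cholangiocyte nucleus each. Gstm1 was also not called between hepatocytes and endothelial nuclei (0.78 ± 0.36, adjusted p = 0.0672) or stellate nuclei (0.79 ± 0.44, adjusted p = 0.147), although it was called as higher in hepatocytes than in endothelial nuclei without WT mouse 2 or HNKO mouse 3 (adjusted p = 0.0362 and 0.048).

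**Figure D5:**
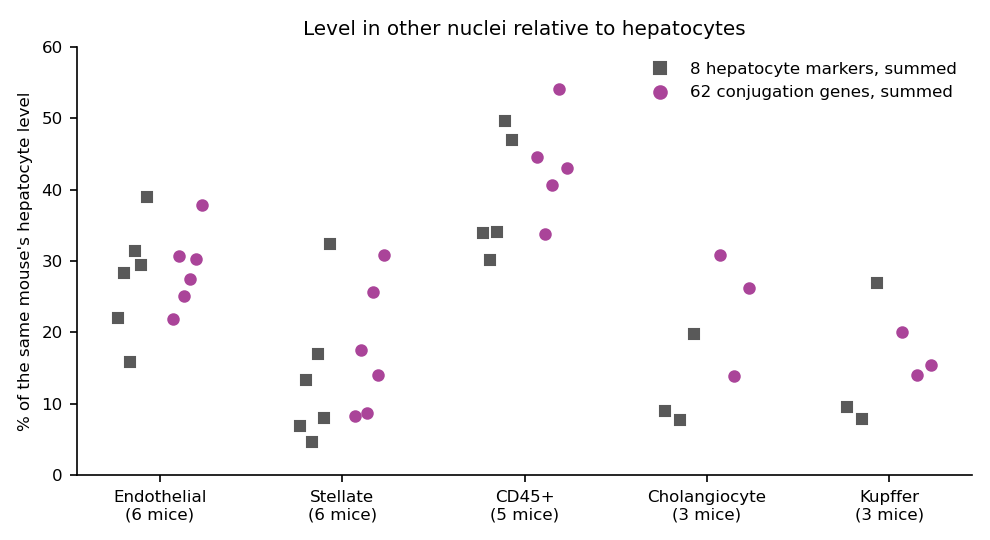
Each point is 1 mouse with at least 10 nuclei of the class. The vertical axis gives the summed level in percent of that in hepatocytes of the same mouse, for the 8 hepatocyte markers (grey squares) and the 62 members (purple circles), whose ranges overlap in each class.

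Genotype could be tested outside hepatocytes for 4 members in endothelial, 1 in stellate and 6 in CD45+ nuclei, and 0 were called (edgeR, against 0% of 2743, 0% of 2266 and 0% of 2651 genes). An unadjusted p under 0.05 was found for 104, 161 and 215 of these genes. WT mouse 3 had 7 CD45+ nuclei and was left out of the fit. The only member with such a p was Gsta3 in CD45+ nuclei, at 40.6 and 46.7 UPM in WT mice 1 and 2 (2 UMIs each) and at 51.1, 323 and 440.5 in HNKO mice 1, 2 and 3. WT mouse 3 was at 231 UPM (7 UMIs), above HNKO mouse 1 and below HNKO mice 2 and 3. HNKO mouse 1 was close to WT mice 1 and 2 (log2 fold change 2.50 ± 1.05, edgeR, adjusted p = 0.586). Hepatocyte markers in CD45+ nuclei reached 30.2% to 34.1% of the hepatocyte level in WT mice 1 and 2 and HNKO mouse 1, and 49.6% and 46.9% in HNKO mice 2 and 3, and their part in this difference was not tested.

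Partner genes that supply cosubstrates, export conjugates or regulate the enzymes were taken from a list of 45, of which 40 were tested in hepatocytes. None was called between genotypes (edgeR, against 0% of all genes), 18 of 40 were below 0, and the median log2 fold change was 0.05. Papss2, which makes PAPS, was at 388, 549 and 431 CPM in WT mice 1, 2 and 3 and 294, 439 and 279 CPM in HNKO mice 1, 2 and 3. Its groups overlapped, with HNKO mice 1 and 3 below every WT mouse (log2 fold change -0.44 ± 0.25). Ugdh, which makes UDP-glucuronate, was at 39.5, 24.7 and 29.1 CPM in WT mice 1, 2 and 3 and 32.2, 30.3 and 75.2 CPM in HNKO mice 1, 2 and 3. Gclc, the catalytic subunit of the first step of glutathione synthesis, was at 176, 123 and 128 CPM in WT mice 1, 2 and 3 and 147, 123 and 282 CPM in HNKO mice 1, 2 and 3. HNKO mouse 3 was the highest mouse for both and the other mice overlapped (log2 fold changes 0.57 ± 0.38 and 0.37 ± 0.33).

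Among the regulators, Nr1i3 (CAR) was at 160.1, 257 and 215 CPM in WT mice 1, 2 and 3 and 92.3, 158 and 86.9 CPM in HNKO mice 1, 2 and 3. After TMM scaling every HNKO mouse was below every WT mouse, although the mouse labelled HNKO 2 was close to WT mouse 1. Before scaling, the mouse labelled HNKO 2 was above WT mouse 1 in Nr1i3. The log2 fold change was -0.91 ± 0.29 (edgeR, unadjusted p = 0.0133, adjusted p = 0.82), and -1.24 ± 0.26 without the mouse labelled HNKO 2 (adjusted p = 0.169). Nr1i2 (PXR) was at 307, 326 and 439 CPM in WT mice 1, 2 and 3 and 496, 351 and 123 CPM in HNKO mice 1, 2 and 3. Ahr was at 249, 295 and 279 CPM in WT mice 1, 2 and 3 and 515, 225 and 107 CPM in HNKO mice 1, 2 and 3. HNKO mouse 1 was the highest and HNKO mouse 3 the lowest of the 6 mice for both (log2 fold changes -0.14 ± 0.45 and 0.04 ± 0.49). After TMM scaling, 4 of the 40 partners were lower in every HNKO than in every WT mouse, against 5.17% of all genes. Another 1 was higher, against 6.43%. The lower ones were Nr1i3 and, named after their values were seen, Ugp2, Abcc2 and Nr1h4. Before scaling, Nr1i3, Ugp2 and Nr1h4 overlapped between genotypes, and Abcc2 did not. Nfe2l2, also named after its values were seen, was the higher one.

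Along the zones, 17 of the 40 partners were called (edgeR), 14 as pericentral and 3 as periportal, against 17.7%, 10.1% and 7.63% of all genes. Ahr (1.82 ± 0.11) and Nr1i3 (1.24 ± 0.12) were pericentral in 6 of 6 mice. So were Papss2 (0.62 ± 0.07), the UDP-sugar transporter Slc35d1 (0.51 ± 0.08), Ugp2, which makes UDP-glucose (0.27 ± 0.08), and the exporters Abcc4 (2.30 ± 0.36), Abcg2 (0.78 ± 0.17), Abcc2 (0.49 ± 0.06) and Abcc3 (0.44 ± 0.10). Of the 6 genes of glutathione supply and recycling tested, Gclc, Gclm, Gss, Gsr, Ggt6 and Chac2, only Gss was called. Gss, the glutathione synthetase, was periportal in 6 of 6 mice (-0.74 ± 0.14), and Gclc was not called (-0.10 ± 0.08, adjusted p = 0.48). Nnmt, the nicotinamide methyltransferase, was periportal in 5 of 6 mice (-0.41 ± 0.12). The signalling factor Stat5b was also periportal (-0.23 ± 0.07, 6 of 6 mice). Other partners called as pericentral included the nuclear receptors Ppara (0.74 ± 0.06, 6 of 6 mice) and Nr1h4 (0.34 ± 0.09, 4 of 6 mice) and the glycine conjugation genes Glyat (0.47 ± 0.09, 6 of 6 mice) and Acsm1 (0.61 ± 0.08, 6 of 6 mice).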

How the data were processed

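Nuclei were sequenced by the authors with 10x Genomics 3′ chemistry. The submitters' processing notes name Cell Ranger version 5.0.1, alevin and GRCm38, and the study's methods name the GENCODE M25 gene model. The authors deposited estimated counts of UMIs per gene and nucleus, spliced and unspliced RNA included, and hashtag counts per nucleus. A matrix of SCTransform values was not used. Only nuclei with 1 hashtag call had been kept, below a limit on detected genes (at most 5497 here), and no doublet caller was run here, so that droplets with nuclei of 1 mouse may remain. Cell classes are the authors' cluster names. Locations were read from GENCODE M21 on GRCm38.

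Estimated counts were summed per mouse and class, for mice with at least 10 nuclei of the class, and rounded. For tests, R version 4.3.3 was used with edgeR version 4.0.16 (genes kept by filterByExpr, TMM scaling, two-sided quasi-likelihood F test, Benjamini-Hochberg adjustment over all genes tested, threshold 0.05), on genotype alone or on class or zone with mouse as a block. DESeq2 version 1.42.0 was an alternative. The zone score was the mean z score, within a mouse, of log counts per 10000 UMIs over pericentral minus periportal markers. The mouse is the replicate, with 3 per genotype, and the hashtag groups are numbered by hashtag name only. On simulated data with 200 genes changed by a log2 value of 2, the tests recovered 83.5% of them for genotype in hepatocytes (11589 genes), 99.5% for zone (9969 genes), 79.5% for the interaction (9965 genes), 67% against endothelial nuclei (11243 genes) and 56% against stellate nuclei (11468 genes). False calls numbered 18, 7, 6, 9 and 12 in the same order. In the data, Sult3a1 was not called for genotype at a log2 fold change of -2.01. These rates may therefore not hold for genes that vary as widely between mice. Floors for counts of 0 cover counting error only, while SD and SE are over mice.

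Named members had a mean of at least 50 CPM in hepatocytes, were called in a test, were among the 5 with the largest genotype difference in hepatocytes, or had their highest level outside hepatocytes with at least 20 UMIs. Named partners were Papss2, Ugdh, Gclc, Nr1i3, Nr1i2, Ahr and those called, of which 1 is not reported here. Members, lists and rules were chosen with earlier results of these data known. Figures were drawn with matplotlib version 3.10.9 in Python version 3.11.15.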

Additional observations from a re-analysis of the deposited data

How the results depend on the processing

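The design has 3 mice per genotype, the mouse labelled HNKO 2 shared the clusters of the WT mice, and few members had enough UMIs outside hepatocytes to be tested. Where each alternative was run, counts of called members kept to within 1.5 times of the reported value under other size factors, no filter on low counts, DESeq2, thinning to the shallowest mouse, another cut of the zone score, a zone score without cytochrome P450 markers, no mouse block for the cell classes and each mouse left out, with these exceptions. DESeq2 was not run for the interaction and the other cell types, and thinning was run only for genotype in hepatocytes. Between zones, 0 members were called without the mouse block (267 of all 8637 genes), and 9 in HNKO mice alone (867 of 10514 genes), against 16 in WT mice alone (1235 of 8472 genes), a split chosen after seeing the data. With no filter on low counts, 1 member was called between genotypes outside hepatocytes, Gsta3 in CD45+ nuclei (log2 fold change 2.80, adjusted p = 0.0391, 4 against 119 UMIs). The cause was not tested. Where run, leaving out each mouse in turn gave 13 to 22 zone calls, 28 to 32 calls against endothelial and 31 to 33 against stellate nuclei, and 0 calls between genotypes. Log2 fold changes between genotypes that changed sign when a mouse was left out ranged from -0.67 to 0.21 for Gsta3, -0.19 to 0.07 for Ugt1a9, -0.62 to 0.10 for Ugt2b34, -0.07 to 0.21 for Mgst1, -1.15 to 0.32 for Sult2a2, -2.51 to 0.18 for Sult2a1, -0.48 to 0.01 for Sult1a1, -0.06 to 0.60 for Gclc, -0.59 to 0.25 for Nr1i2 and -0.72 to 0.44 for Ahr. The difference in the UMI share of all members, -0.0583 percentage points, ranged from -0.108 to 0.00724 and was above 0 without HNKO mouse 1. Each RNA pool alone was not run, as the table used here does not tell the pools apart. No paired analysis was possible because the numbers shared by RNA and hashtag pools name 2 kinds of library of the same nuclei, and mice of both genotypes share no number in the labels. To more digits, Ugt1a9 was at 0.0668 and Mgst1 at -0.0733 without the mouse labelled HNKO 2, and Sult1a1 at 0.0078 and Gclc at -0.0634 without HNKO mouse 3.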
